A study of Canis lupus familiaris with 34 samples.

Results

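Chemokines are small secreted or membrane-tethered proteins that guide the migration of cells, mainly leukocytes, through G protein-coupled receptors on the responding cell. Atypical receptors (the ACKR genes) bind chemokines without classical G protein signalling and clear or transport them. In bone, chemokines made by stromal cells, vessel walls and leukocytes are known to direct immune cells and osteoclast precursors. The genes described here are the rows of a dog osteosarcoma expression table whose names begin with a chemokine or chemokine receptor family symbol and a digit. They were chosen by name alone, and 20 of the 23988 rows qualified, 9 ligands, 8 classical receptors and 3 atypical receptors. Family members that carry only an Ensembl identifier, as 9653 rows do, could not be recognised by symbol, and CXCL12 and CXCR4 are among the genes not analysed here.

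RNA was sequenced from 34 dog libraries, 30 of primary osteosarcoma, 1 of a metastasis (DOS.6M), 2 of established tumour lines (OSCA.78 and OSCA.8) and 1 of cultured osteoblasts (CNOB), the cells that make bone matrix. The labels give Golden Retriever as the breed of every sample, while the series design also mentions Rottweilers. They state no treatment, sex or age, and neither the clonality of the lines nor the cells still present in the tissue pieces. The unit, which the table does not name, was taken to be FPKM, a fragment count divided by transcript length and library size. On this per-length scale, levels of different genes can be set side by side.

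Some libraries were not independent of each other. The pair DOS.46 and DOS.46.2, by its number the same tumour, was averaged, which left 29 primary tumours. Libraries DOS.100 and DOS.32 carry different numbers, yet they were as alike as that pair, with a median absolute difference of 0.0891 on the log2 scale among genes over 5 FPKM, against 0.0648 for the DOS.46 pair. DOS.110 and DOS.115 differed by 0.277, and DOS.56 and DOS.57, the next pair by the correlation of their deviations from the tumour mean, by 0.448. Values that these 4 libraries move or end are given with and without them. The summed FPKM of a library ranged from 479053 to 1418308 (median 623084), highest in the osteoblast culture, and depth in reads is unknown. Levels of the osteoblast culture are given as deposited, without scaling to that median, so its place among the tumours is uncertain.

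Some bone matrix genes were present in every culture, but the list as a whole was lower in the lines than in tumours. Of the 8 such genes in the table, the line OSCA.78 had 4 at or above 1 FPKM, OSCA.8 had 5 and the osteoblast culture 6, including SPP1, COL1A2 and SPARC in all 3 cultures. Summed over the 8 genes, OSCA.8 reached 6183 and OSCA.78 only 3474 FPKM, both under the lowest tumour sum of 6862. The osteoblast culture, at 16094, lay within the tumour range, which ended at 42859. Between lines and tumours the median log2 difference of this list was -4.47, with 4 genes called lower and 0 higher (limma). Markers of T cells summed to between 0.925 and 1.09 FPKM in the 3 cultures over 14 genes, against 2.995 to 120 in primary tumours. CD3D, part of the T cell receptor complex, was listed at 0 in each culture. The 15 macrophage genes summed to 1.81 FPKM in OSCA.8, 2.61 in OSCA.78 and 25.1 in the osteoblast culture, and to between 91.8 and 1599 in tumours. The 10 endothelial genes came to 6.13 FPKM for OSCA.8 and 40.9 for OSCA.78, where FLT1 was at or above 1 FPKM in both, and to between 111.05 and 2665 in tumours.

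The first question was which of the 20 genes are present in cultured tumour cells and which are seen in tissue only. Presence was taken as at least 1 FPKM. By this measure 3 ligands, CXCL14, CXCL16 and CX3CL1, were present in both lines, and the receptor CXCR6 in OSCA.78 alone. A further 10 genes stayed under 1 FPKM in both lines and reached it in at least 2 tumours, namely the ligands CCL13, CCL14 and CXCL13, the receptors CCR2, CCR7, CCR8 and CCR10, and the atypical receptors ACKR1, ACKR2 and ACKR4. The other 6, CCL16, CCL22, CXCL17, CCR6, CXCR5 and XCR1, were low throughout. Among all 15165 genes that reached 1 FPKM in at least 2 libraries, 83.9% were present in at least 1 line, against 4 of the 14 chemokine family genes past that filter. The plot of the 20 genes by library shows these classes, which are a description of the values that define them. Tissue only means under 1 FPKM in both lines, not absent from them or lower there than in most tumours.

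**Figure D1:**
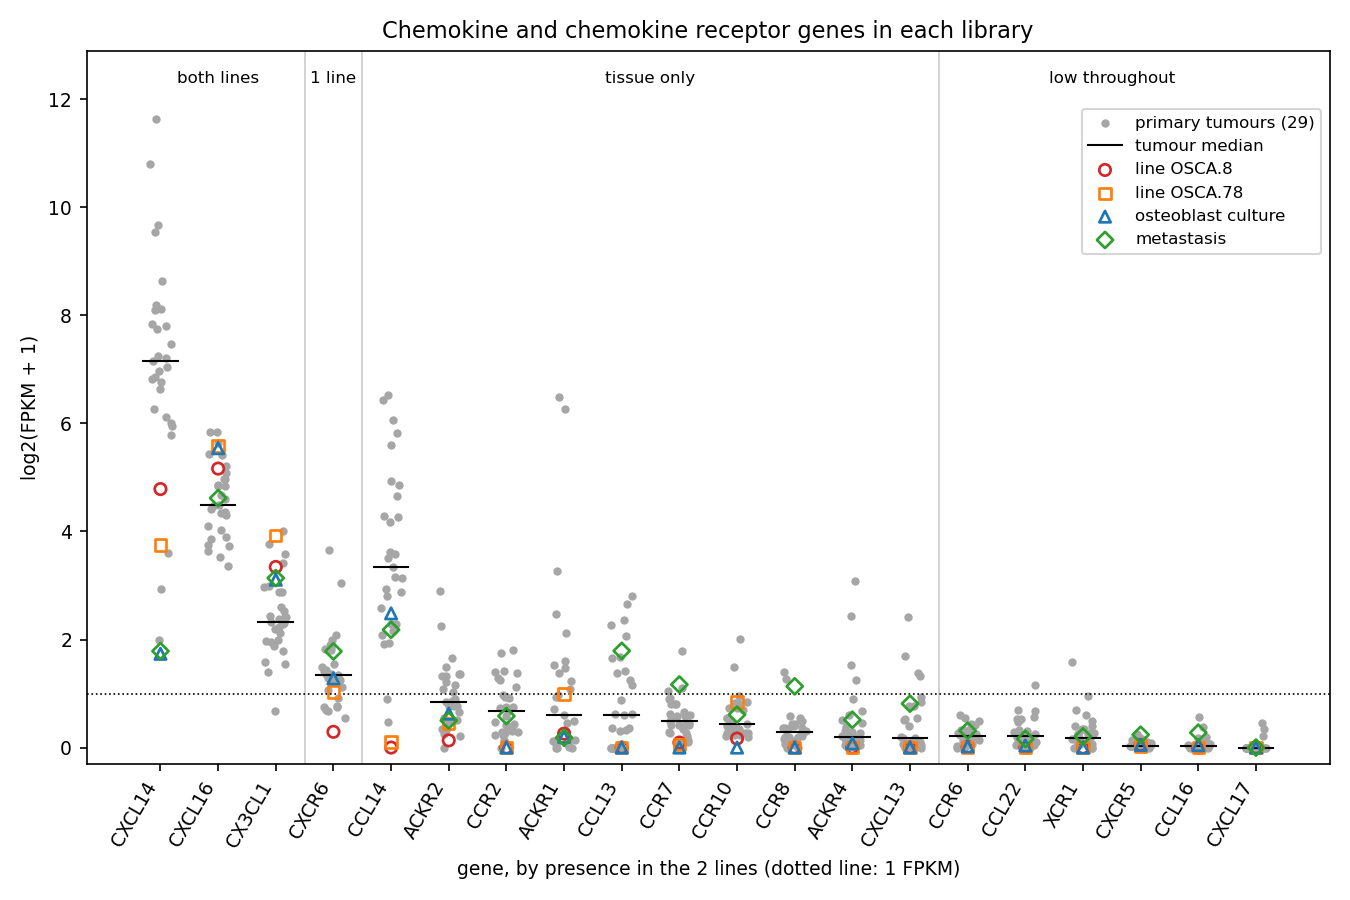
Level of the 20 chemokine and chemokine receptor genes as log2(FPKM + 1), with 1 grey point for each of 29 primary tumours, the tumour median as a black bar, and open symbols for the 2 lines, the osteoblast culture and the metastasis. CXCL14, CXCL16 and CX3CL1 lie above the dotted line at 1 FPKM in both lines, while CCL14 lies near 0 in both lines and above 0.39 FPKM in every tumour.

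CXCL16 and CX3CL1 are the chemokines that are made as transmembrane proteins with a mucin-like stalk and can be shed from the cell surface by proteases. CXCL16 stood at 34.9 FPKM in OSCA.8, 46.9 in OSCA.78 and 45.6 in the osteoblast culture. Among primary tumours its lowest value was 9.24, the median 21.6 and the highest 56.3 FPKM, in DOS.70. All 3 cultures lay in the upper part of the tumour range, with 3 to 6 of 29 tumours above them. For the osteoblast culture this place holds only for the unscaled value, as its summed FPKM was the highest of all libraries. The lines were on average 0.80 ± 0.49 higher than the tumours (SE, difference of log2(FPKM + 1), limma adjusted p = 0.266), which is within the spread between tumours. Macrophage markers summed to 1.81 to 25.1 FPKM in these cultures. Interferon response genes summed to 462 FPKM in OSCA.8, 2084 in OSCA.78 and 18.7 in the osteoblast culture, against 31.6 to 410 in tumours. The part of either list in the CXCL16 level was not tested.

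CX3CL1, also called fractalkine, had 9.15 FPKM in OSCA.8, 14.2 in OSCA.78 and 7.62 in the osteoblast culture. In primary tumours it ranged from 0.594 to 15.0035 FPKM with a median of 4.02. Only 1 tumour, DOS.84, exceeded OSCA.78, and 4 exceeded OSCA.8. The difference between lines and tumours was 1.24 ± 0.51 (SE) on the log2 scale and did not pass (limma adjusted p = 0.0935). Each line exceeded the primary tumour that carries its number, at 9.15 against 6.37 FPKM for number 8 and 14.2 against 4.39 for number 78. The labels do not say that these lines came from those tumours.

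CXCL14, a CXC chemokine made by epithelia and stroma, was the most abundant of the 20 genes in tumours. It ranged from 2.96 to 3194 FPKM, with a median of 142 and a mean of 348 ± 651 (SD, n = 29), or 189 ± 195.2 (SD, n = 27) without DOS.110 and DOS.115. Its standard deviation over tumours, 2.04 on the log2 scale, ranked 175 among 15165 genes. The highest values were 3194 FPKM in DOS.110 and 1796 in DOS.115, the alike pair named above, and without them the highest was 812 in DOS.57. In the lines it was 26.6 FPKM (OSCA.8) and 12.5 (OSCA.78), below 26 of 29 tumours in each case. The osteoblast culture had 2.33 and the metastasis 2.45 FPKM, both below every primary tumour. Lines and tumours differed by -2.87 ± 1.42 (SE, limma adjusted p = 0.168), a difference that did not pass. With the osteoblast culture added to the lines, the change was -3.71 and passed (limma adjusted p = 0.0172).

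CXCR6, the receptor for CXCL16 that is known on activated and tissue-resident T cells, was near the threshold in culture. It had 0.224 FPKM in OSCA.8, 1.04 in OSCA.78 and 1.43 in the osteoblast culture. Tumours ranged from 0.461 to 11.6 FPKM with a median of 1.55, and 22 of 29 reached 1 FPKM. OSCA.8 lay below every tumour, and OSCA.78 was above 7 of them. In the reference annotation of another dog assembly the span of CXCR6 overlaps that of FYCO1, an adaptor of vesicle transport. TruSeq RNA v2 libraries do not mark strand, so reads of any shared exons may be counted to either gene. FYCO1 stood at 11.4 FPKM in OSCA.8, 13.2 in OSCA.78 and 18.5 in the osteoblast culture, against a tumour median of 6.20. The part of FYCO1 in the low CXCR6 values of the cultures was not tested. Just under the threshold in the lines were ACKR1 at 0.992 FPKM and CCR10 at 0.799, both in OSCA.78. At these values OSCA.78 exceeded 18 of 29 tumours for ACKR1 and 26 of 29 for CCR10. In OSCA.8 ACKR1 was at 0.196 FPKM, with 18 tumours above it, and CCR10 at 0.122, below every tumour.

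CCL14 was lower in both lines than in every tumour. This CC chemokine is found in plasma and in vascular tissue. It was listed at 0 in OSCA.8 and stood at 0.0747 FPKM in OSCA.78, while tumours ranged from 0.392 FPKM in DOS.100 to 91.4 in DOS.115, with a median of 9.20 and a mean of 20.2 ± 25.1 (SD, n = 29). Of the 14 chemokine family genes past the filter, 1, CCL14, had both lines below every tumour, as did 7.3% of all genes. CCL14 passed that filter through libraries other than the lines, so this count only describes the gene. The lines lay above every tumour for 4.04% of all genes and for 0 of the 14 chemokine family genes past the filter. The osteoblast culture had 4.60 FPKM, within the tumour range and unlike the lines, and the metastasis 3.53. CCL14 fell by 3.51 on the log2(FPKM + 1) scale (SE 1.10, limma adjusted p = 0.0262), and by 3.31 without DOS.110 and DOS.115 (limma adjusted p = 0.0216). The call ended when either line was left out, at a similar size: the change was -3.56 with an adjusted p of 0.297 without OSCA.78, and -3.46 with 0.135 without OSCA.8 (limma).

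Of the 14 chemokine family genes past the filter, 1 was lower and 0 were higher in the lines (limma, adjusted p under 0.05), against 16.4% of all genes called in either direction and 7.92% called lower. At an unadjusted p under 0.05 there were 3 of the 14, and 4628 of all 15165 genes. The 13 genes not called had differences from -2.87 (CXCL14) to 1.24 (CX3CL1), with limma adjusted p from 0.0935 (CX3CL1) to 0.915 (CCR10). The median difference was -0.52 over the 14 genes and -0.05 over all genes. These figures only describe the genes, since 10 of the 14 passed the filter through tissue values and had to be low in the lines. With a pseudocount of 0.1 in place of 1 FPKM, CCR2 was called as well, at -2.72 (limma adjusted p = 0.0211). The lists of macrophage and endothelial genes fell in the same comparison in 13 of 15 and 9 of 10 members, those of bone matrix in 4 of 8 and those of fibroblasts in 2 of 4. Of the macrophage genes only CD68 reached 1 FPKM in a line, and of the endothelial genes only FLT1 and ENG. The others passed the filter through other libraries, so the counts of these lists only describe them. Of 14 interferon response genes 5 rose and 0 fell. In the lists of T cells, neutrophils, B and plasma cells, dendritic cells and bone marrow stroma, 0 genes were called in either direction. The part of these lists in the CCL14 difference was not tested.

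**Figure D2:**
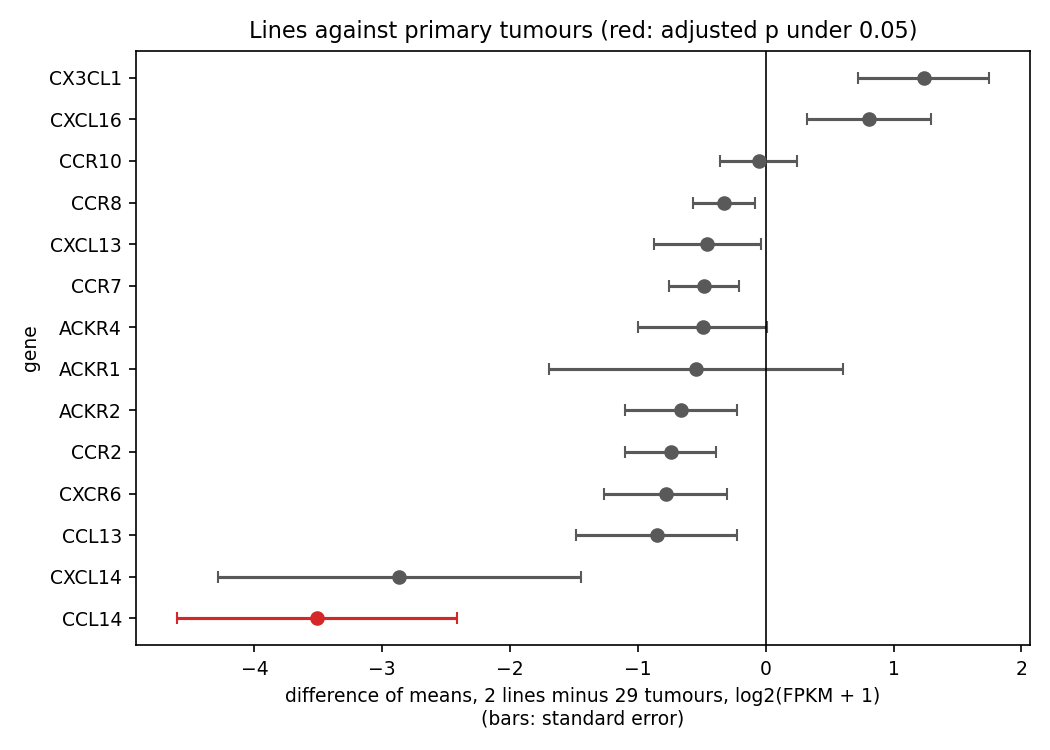
Difference of means between 2 lines and 29 primary tumours in log2(FPKM + 1) for the 14 genes past the filter, with bars for the standard error, and red for an adjusted p under 0.05. CCL14 at -3.51 is the gene called, and CX3CL1 and CXCL16 are the genes with a difference above 0.

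The remaining tissue-only genes were expressed at low levels with a few high tumours. ACKR1, the Duffy antigen receptor of red cells and venules, had a median of 0.527 FPKM, yet reached 88.9 FPKM in DOS.110 and 75.8 in DOS.115. The next tumour, DOS.85, had 8.65, so the large values of ACKR1 belonged to that alike pair. The osteoblast culture had 0.148 and the metastasis 0.135 FPKM of ACKR1. ACKR2, a scavenger of inflammatory CC chemokines, was highest in the same tumours, at 6.46 FPKM in DOS.115 and 3.77 in DOS.110, and without them did not exceed 2.15 (median 0.797). ACKR4, which takes up the homing chemokines of lymph nodes, reached 7.51 FPKM in DOS.115 and 4.44 in DOS.70, with a median of 0.146. In the lines ACKR4 was listed at 0, and ACKR2 at 0.0971 (OSCA.8) and 0.362 FPKM (OSCA.78). DOS.110 and DOS.115 held the highest value for 5 of the 20 genes, ACKR1 and CXCL14 in the former and ACKR2, ACKR4 and CCL14 in the latter.

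The CC chemokine CCL13, which attracts monocytes, and CXCL13, which attracts B cells and is also made by activated T cells, were listed at 0 in both lines and the osteoblast culture. CCL13 reached 1 FPKM in 11 of 29 tumours, with 5.98 in DOS.105 as the highest, and was at 0 in 10. CXCL13 reached 1 FPKM in 4 tumours, with 4.34 in DOS.57, 2.23 in DOS.6 and 1.60 in DOS.105. Of the receptors, CCR2 on monocytes was at 0 in all 3 cultures and between 0 and 2.51 FPKM in tumours (median 0.589). CCR8, a receptor of regulatory T cells, was at 0 in the cultures and at most 1.63 FPKM in tumours. CCR7, which brings dendritic cells and naive T cells to lymph nodes, had 0.0660 FPKM in the line OSCA.8, 0.0398 in OSCA.78 and its highest value in DOS.76, at 2.45.

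The 6 genes that were low throughout included CXCL17 (at 0 in 26 of 29 tumours and at most 0.377 FPKM), CCL16 (at most 0.472), CCR6 (0.526) and the B cell receptor CXCR5 (0.184). XCR1, a marker of cross-presenting dendritic cells, and CCL22, which attracts regulatory T cells, each passed 1 FPKM in 1 tumour, with 2.01 in DOS.70 and 1.24 in DOS.28. That count places them just outside the tissue-only class, and CCR8 and CCR10, with 2 tumours each, just inside it.

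Among primary tumours, levels of the 14 genes were set against scores of 4 lists of marker genes, for T cells (12 genes), macrophages (15), endothelium (10) and interferon response (14), none of which holds a chemokine family gene. A score is the mean z-score of its genes. In bulk tissue, fewer cells of a type and less RNA per cell cannot be told apart. Pearson's r was tested for every gene with 100000 permutations and adjusted over all 15165 genes, and 1e-05 is the smallest p these can give. CXCR6 and CXCL13 rose with the T cell score, CXCL16 and CCL14 with the macrophage score, CCL14 with the endothelial score, and CXCL16 and CCR7 with the interferon score. The 14 genes gave 56 relations in all, and 0 were called in the negative direction by r or by rho. Of all genes, the share called in that direction by r and by rho was 0.0132% and 0.0132% for the T cell score, 1.19% and 0.442% for macrophages, 0.785% and 0.831% for endothelium, and 0.125% and 0.257% for interferon.

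**Figure D3:**
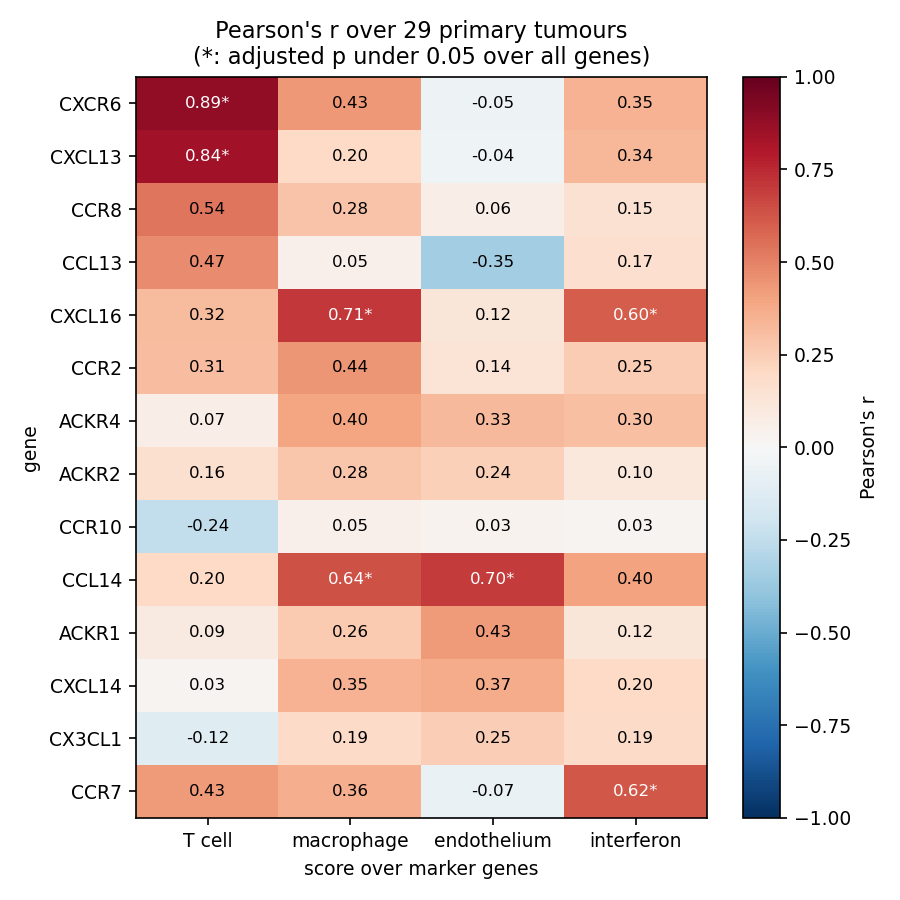
Pearson's r between each of the 14 genes and the 4 marker scores over 29 primary tumours, with red for positive and blue for negative values and an asterisk for an adjusted p under 0.05 over all genes. The highest values are those of CXCR6 (0.89) and CXCL13 (0.84) with the T cell score.

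The T cell score was matched by CXCR6 at r = 0.89 and rho = 0.89 (29 tumours, permutation p = 1e-05 each, adjusted p = 0.0022 for both). For CXCL13 r was 0.84 (p = 1e-05, adjusted p = 0.0022, permutation test) and rho 0.72 (p = 3e-05, adjusted p = 0.0055). These are 2 of 14 genes, where 0.811% of all genes were called upwards by r and 0.93% by rho. Leaving out DOS.105 and DOS.57, whose scores were the most extreme, r was 0.84 for CXCR6 and 0.72 for CXCL13. CXCR6 was highest in these same tumours, at 11.6 FPKM in DOS.105 and 7.22 in DOS.57, followed by 3.25 in DOS.56. Both relations were called under each of the 6 alternatives run with r, with CXCR6 between 0.88 and 0.89 and CXCL13 between 0.80 and 0.88.

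CXCL16 went with the macrophage score at r = 0.71 (29 tumours, permutation p = 1e-05, adjusted p = 0.0012) and rho = 0.71 (p = 3e-05, adjusted p = 0.0036), and CCL14 at r = 0.64 (p = 1.5e-04, adjusted p = 0.0092) and rho = 0.62 (p = 3.8e-04, adjusted p = 0.0224, permutation tests). Of all genes 3.26% were called upwards by r and 2.38% by rho. DOS.100 and DOS.32 lay farthest from the median score, and without them r was 0.65 for CXCL16 and 0.49 for CCL14. With these libraries counted as 1 tumour, CXCL16 was still called (r = 0.68, permutation adjusted p = 0.0108) and CCL14 was not (r = 0.58, permutation adjusted p = 0.0580). Without DOS.110 and DOS.115, CCL14 had r = 0.61 (permutation adjusted p = 0.0261).

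CCL14 followed the endothelial score at r = 0.70 (29 tumours, permutation p = 4e-05, adjusted p = 0.0020) and rho = 0.77 (p = 2e-05, adjusted p = 0.0014), where 4.6% of all genes were called upwards by r and 4.02% by rho. Without DOS.113 and DOS.81 r was 0.75, and over 6 alternatives it lay between 0.64 (without DOS.110 and DOS.115) and 0.71, called in each. ACKR1 stood at r = 0.43 with the same score and did not pass (permutation p = 0.0202, adjusted p = 0.166), with rho = 0.497 (p = 0.0066, adjusted p = 0.0884). Without DOS.110 and DOS.115, r of ACKR1 was 0.24 (permutation p = 0.230, adjusted p = 0.651). The endothelial genes summed to 1010 FPKM in DOS.110 and 1112 in DOS.115, against a tumour median of 356. The endothelial score was higher in DOS.81 (2.30) and DOS.113 (1.70) than in DOS.110 (1.21) and DOS.115 (1.24). ACKR1 was at 1.87 FPKM in DOS.81 and 0.640 in DOS.113. The part of vessels in the ACKR1 values was not tested.

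For the interferon score the calls were CCR7 at r = 0.62 (29 tumours, permutation p = 2.8e-04, adjusted p = 0.0301) and CXCL16 at r = 0.60 (p = 5.3e-04, adjusted p = 0.0467), where 1.07% of all genes were called upwards by r and 0.95% by rho. Without DOS.70 and DOS.76 r was 0.65 for CCR7 and 0.53 for CXCL16. By Spearman's rho neither passed (0.53 with p = 0.0037 and adjusted p = 0.129 for CCR7, 0.60 with p = 8.2e-04 and adjusted p = 0.0598 for CXCL16, permutation tests). Neither was called with DOS.100 and DOS.32 counted as 1 tumour (permutation adjusted p = 0.0748 for CCR7 and 0.104 for CXCL16), and CCR7 was not called without DOS.110 and DOS.115 (permutation adjusted p = 0.0786).

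**Figure D4:**
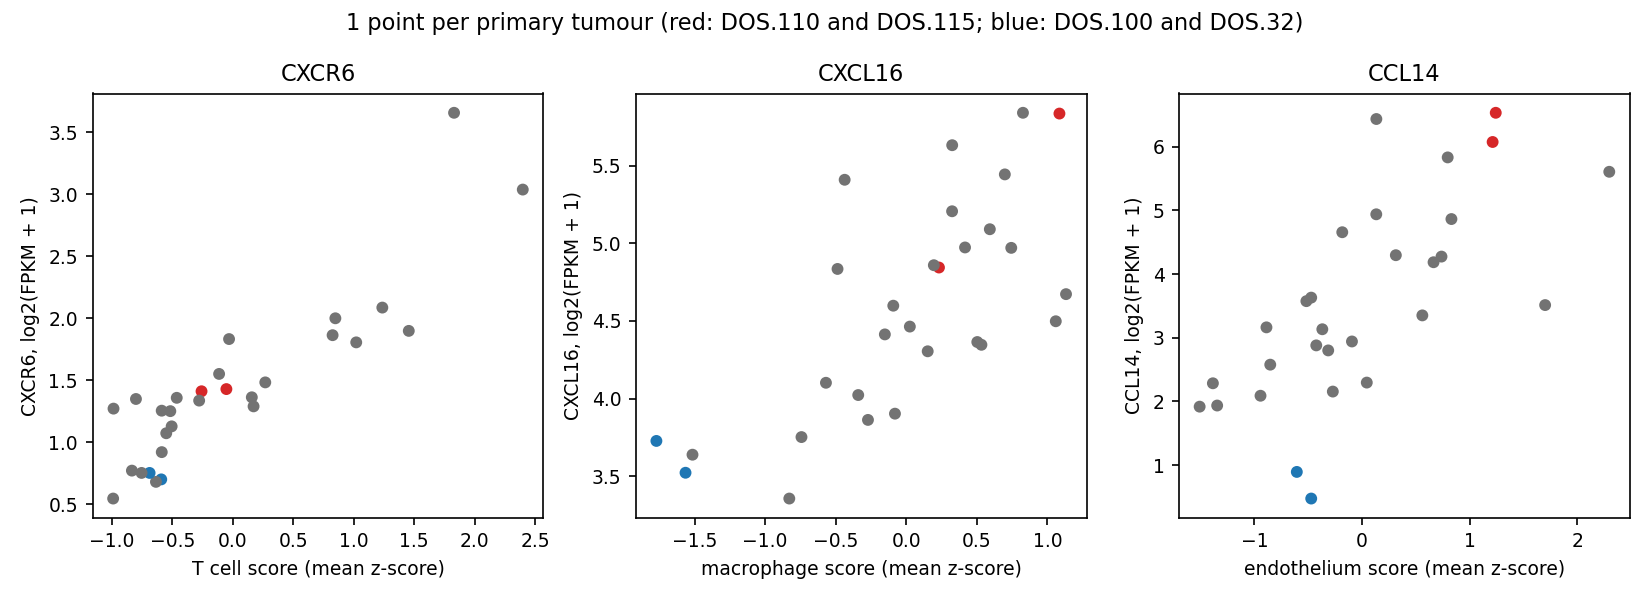
Level of CXCR6, CXCL16 and CCL14 in log2(FPKM + 1) against the T cell, macrophage and endothelial score, 1 point for each of 29 primary tumours, with DOS.110 and DOS.115 in red and DOS.100 and DOS.32 in blue. The blue pair has the lowest macrophage scores and the lowest CCL14, and the CXCR6 plot has 2 tumours, DOS.105 and DOS.57, far above the rest.

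Known ligand and receptor pairs could be followed for 2 combinations with both genes past the filter. CXCL16 and its receptor CXCR6 had r = 0.45 over 29 tumours (permutation p = 0.0130, adjusted over all genes 0.497) and rho = 0.54 (p = 0.0027, adjusted p = 0.135), and r = 0.42 without DOS.105 and DOS.57. By r the ligand ranked 356 among 15164 genes, of which 0.844% were called as rising with CXCR6 by r and 1.24% by rho (0% and 0.0396% as falling). CCL13 and its receptor CCR2 had r = 0.19 (permutation p = 0.330, adjusted p = 0.825) and rho = 0.21 (p = 0.283, adjusted p = 0.758), with r = 0.19 without DOS.111 and DOS.90. With CCR2, 0% of all genes were called in either direction (0 by rho as well). Neither pair passed, and no alternative changed that.

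Genes with a symbol whose tumour pattern was most like that of a chemokine family gene were ranked by r over the 29 tumours, among 15164 genes. For CCL14 these were ELOVL7 (r = 0.90, rho = 0.92), the angiopoietin receptor TEK of endothelial cells (0.85 and 0.87) and the nuclease DNASE1L3 (0.84 and 0.84). TEK is itself a gene of the endothelial score. For CXCR6 they were SLAMF6 (r = 0.91, rho = 0.85), the T cell surface protein CD5 (0.89 and 0.85), which belongs to the T cell score, and TBC1D10C (0.87 and 0.87). For CXCL16 they were the leukotriene receptor CYSLTR2 (r = 0.79, rho = 0.79), the haematopoietic exchange factor VAV1 (0.79 and 0.76) and FGD2 (0.78 and 0.76). Each of these 9 relations kept r at or above 0.70 when the 2 tumours most extreme in the chemokine family gene were left out.

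CXCL14 was most like STEAP4 (r = 0.72, rho = 0.54), PNPLA8 (0.697 and 0.63) and GPR126 (0.697 and 0.61), and CX3CL1 most like BICD1 (0.74 and 0.83), USP6NL (0.72 and 0.67) and SNTB1 (0.70 and 0.54). None of these 6 relations passed (permutation adjusted p = 0.0758 for the r of CXCL14, and 0.152 to 0.202 for CX3CL1). Without DOS.101 and DOS.84, r with CX3CL1 was 0.75 for BICD1, 0.575 for USP6NL and 0.574 for SNTB1. ACKR2 was most like HPD (r = 0.83, rho = 0.65), GAS1 (0.80 and 0.62) and ARNTL2 (0.80 and 0.74). These ACKR2 relations leaned on DOS.110 and DOS.115, without which r was 0.58, 0.55 and 0.64. Over all tumours they passed by r (permutation adjusted p = 0.0202) and not by rho (permutation adjusted p = 0.152 to 0.281). HPD had 12.4 FPKM in DOS.115 and 6.37 in DOS.110, against a tumour median of 0.101.

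In the annotation of the other dog assembly, the spans of 6 of the 20 genes overlap that of another measured protein-coding gene. Exons were not compared. Where exons overlap, reads of such a pair cannot be told apart without strand. CCR10, a receptor for skin and mucosal chemokines, overlaps CNTNAP1, a membrane protein of myelinated axons. CCR10 ranged from 0.143 to 3.03 FPKM in tumours (median 0.345) and CNTNAP1 from 0.172 to 23.2 (median 2.63). Of 15164 genes, CNTNAP1 had the highest r with CCR10, 0.73 over 29 tumours (permutation p = 4e-05, adjusted p = 0.101), with rho = 0.74 (p = 3e-05, adjusted p = 0.152) and r = 0.56 without DOS.73 and DOS.76. In the cultures the order was the same, with CCR10 at 0.799, 0.122 and 0 FPKM where CNTNAP1 was at 7.72, 0.844 and 0.451, in OSCA.78, OSCA.8 and the osteoblast culture. CCR10 values are uncertain, and the part of CNTNAP1 in them was not tested. Over tumours CXCR6 had r = -0.20 with FYCO1 (permutation p = 0.308, adjusted p = 0.899), rho = -0.14 (p = 0.469, adjusted p = 0.887) and r = -0.03 without DOS.105 and DOS.57. In the cultures CXCR6 and FYCO1 also had the same order. CXCR6 was at 0.224, 1.04 and 1.43 FPKM where FYCO1 was at 11.4, 13.2 and 18.5, in OSCA.8, OSCA.78 and the osteoblast culture. CXCR6 values in the cultures are uncertain as well, since the gene spans overlap, and the part of FYCO1 in them was not tested.

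The remaining overlaps gave r = 0.33 for ACKR4 with ACAD11 (permutation p = 0.0794, adjusted p = 0.399, rho = 0.11 with p = 0.575 and adjusted p = 0.829) and 0.20 without DOS.115 and DOS.70. CXCL16 had r = 0.08 with MED11 (permutation p = 0.674, adjusted p = 0.908, rho = 0.07 with p = 0.704 and adjusted p = 0.920) and 0.10 without DOS.115 and DOS.70. MED11 was higher in the lines, at 38.3 and 47.4 FPKM against a tumour median of 15.3, and rose by 1.44 (limma adjusted p = 0.0074). Whether reads of MED11 reach CXCL16 in the lines was not tested. ZMYND15 at CXCL16, CYP8B1 at ACKR2 and BCL9L at CXCR5 were not correlated, since 1 gene of each pair did not pass the filter. These overlaps were examined after the levels had been seen.

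**Figure D5:**
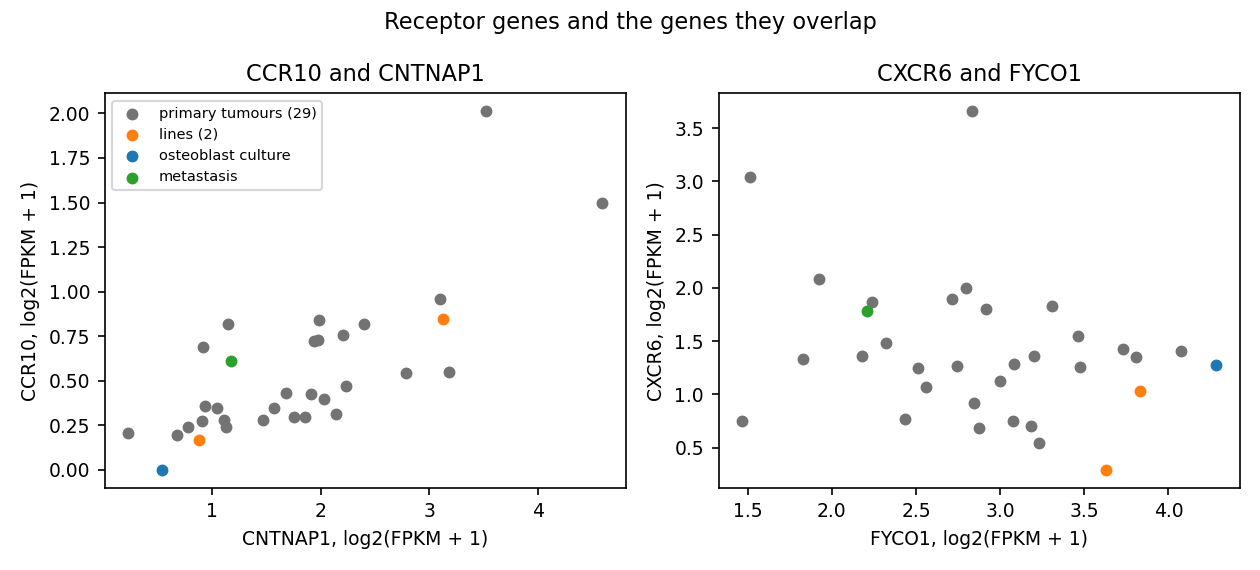
Level of CCR10 against CNTNAP1 and of CXCR6 against FYCO1 in log2(FPKM + 1), 1 point for each of 29 primary tumours (grey), the lines (orange), the osteoblast culture (blue) and the metastasis (green). Over tumours CCR10 goes up with CNTNAP1 (r = 0.73), and CXCR6 has no such slope with FYCO1 (r = -0.20).

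Beyond the 20 genes, a list of other chemokine genes and of chemokine signalling genes had 37 members past the filter. In the lines 13 of them fell, 2 rose and 22 did not pass (limma over all genes), where 7.92% of all genes were lower and 8.49% higher. Of the 37, 10 were under 1 FPKM in both lines and so passed the filter through other libraries, and 8 of the 13 that fell are among these. Of the other 27, 5 fell and 2 rose. The counts only describe the list. The largest called changes were those of the GTPase RAC2 (-4.53 ± 1.04 SE, limma adjusted p = 0.0029) and RGS1, a regulator of G protein signalling (-4.26 ± 0.99, limma adjusted p = 0.0031), which act in leukocyte migration. ELMO1, a partner of DOCK proteins in cell movement, followed at -2.27 and VAV1 at -2.23. RAC2, RGS1 and VAV1 were under 1 FPKM in both lines, so their changes, too, only describe the genes. RAC2 was at 0 in OSCA.78, at 0.0597 FPKM in OSCA.8, and between 0.854 and 139 in tumours. Among those that rose was the receptor kinase GRK6 (0.97, limma adjusted p = 0.0302), named after its values were seen. With OSCA.8 as the only line 0 of the 37 were called.

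The metastasis, a single library with no replicate check, was set beside primary tumour DOS.6, whose number it shares. CXCL14 was 76.4 FPKM in DOS.6 and 2.45 in DOS.6M, and CCL14 18.3 and 3.53. CX3CL1 was 3.36 and 7.80, and CXCL16 30.4 and 23.6. CXCR6 was 2.73 and 2.44, CCR8 1.41 and 1.19, CCL13 4.11 and 2.46 and CXCL13 2.23 and 0.757 FPKM. CCR7 was 0.532 in DOS.6 and 1.25 in DOS.6M, where only 1 primary tumour was higher. T cell markers summed to 52.5 FPKM in DOS.6 and 61.4 in DOS.6M, endothelial markers to 770 and 300.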

How the data were processed

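The authors deposited 1 table of 34 libraries, whose header gives no unit. FPKM was assumed for these deposited values, since the tools named in the submitters' processing notes include Cufflinks 2.2.1, with FastQC 0.11.2, TopHat2 2.0.13 and genome build canFam3, in no stated order. As for annotation, parameters and masking, they were not given in the sources used here.

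Per-gene tests used log2(FPKM + 1) on the 15165 genes that reached 1 FPKM in 2 or more libraries. The 2 libraries of tumour 46 were averaged. Lines were compared with tumours in limma 3.58.1 (R 4.3.3; two-sided moderated test, robust, with an intensity trend). P-values were adjusted over these genes by Benjamini-Hochberg, with a threshold of 0.05. Nearly all of the spread comes from the tumours, since there are 2 lines. Relations over tumours used two-sided permutation tests with 100000 resamples (Python 3.11.15, numpy 2.4.6), adjusted in the same way for each score or receptor. Both procedures were tested on simulated data.

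Depth in reads is unknown, so no counting interval is given. Genes were named in full where present in a line, called, or with a tumour median of at least 5 FPKM. The most similar genes were named for the 4 family genes and 2 receptors of highest median, 3 each, and the 4 pathway genes of largest called change. The members were taken by name, but the naming rule and the gene lists were set with earlier results of these data known. Separate cultures or dogs are not documented for every library, so p-values measure the spread between these samples, which may be partly technical. Alternatives were another pseudocount, filter, scaling, moderation and set of libraries. Gene symbols matched RefSeq (assembly UU_Cfam_GSD_1.0) for all 20 genes, used for overlaps only. No sequences are printed. 1 pathway gene is not reported here.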

Additional observations from a re-analysis of the deposited data

How the results depend on the processing

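With no read counts, depth sets no interval here, and values under 1 FPKM are weakly measured. With the osteoblast culture among the lines, 2548 genes were higher and 2032 lower (1288 and 1201 as reported), and 2 chemokine family genes were lower, CCL14 and CXCL14. With a pseudocount of 0.1 FPKM 2 were lower, CCL14 and CCR2. Leaving out a line gave 199 to 979 higher and 145 to 1019 lower genes, 0 lower chemokine family genes each time, and 0 to 3 higher and 0 to 8 lower pathway genes. Upper quartile scaling turned the balance to 962 higher and 1388 lower, with a median of -0.14, and quantile normalization to 1345 and 970. Lines share title numbers with 2 tumours, and the differences between them correlated at r = 0.269 over genes, which 2 pairs cannot settle. With that number as a replicate block and 1 residual degree of freedom, 0 genes were called in either direction (3164 at an unadjusted p under 0.05), and 0 pathway and 0 chemokine family genes, with CCL14 at -3.71 (limma adjusted p = 0.152). With DOS.100 and DOS.32 as 1 tumour, 1 gene rose with the macrophage score and 0 with the interferon score. The interferon count was 0 by Spearman's rho, and 1 with quantile normalization, without the DOS.46 libraries, or without DOS.110 and DOS.115. The last of these and the averaging of DOS.100 and DOS.32 were chosen after seeing the data. Presence counts moved by at most 1.5 times, to 6 genes in the lines at 0.5 FPKM and 3 at 2 FPKM. At 1 FPKM the count in the lines was also 3 with upper quartile scaling, with both lines required, or without OSCA.78. Where a cause is not named, the cause was not tested.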

Other observations

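The likeness of DOS.100 and DOS.32 reached the chemokine family genes. CXCL14 was 109 and 131 FPKM in them, CXCL16 12.2 and 10.5, CCL14 0.392 and 0.860, CXCR6 0.626 and 0.685 and CCR10 0.659 and 0.654. Their deviations from the tumour mean correlated at r = 0.843 over all genes past the filter, against 0.744 for DOS.46 and DOS.46.2, 0.668 for DOS.110 and DOS.115 and 0.463 for the next pair, DOS.56 and DOS.57. The labels do not say whether libraries of different numbers share a dog.

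The highest tumour value of the 20 genes was spread over 13 tumours. DOS.105 held 3 of them, CCL13, CCL16 and CXCR6, and DOS.115 likewise 3, ACKR2, ACKR4 and CCL14.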
